A study of Oryctolagus cuniculus with 24 samples.

Results

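Interleukin-1 (IL-1) family transcripts were followed in rabbit peripheral blood mononuclear cells (PBMCs), the lymphocytes and monocytes of the blood. The genes were picked out by name, with earlier results of these data known: the ligands IL1A, IL1B, IL18, IL33, IL36G and IL37 and the decoy receptor IL1R2. All 7 of the 7 names had a probe, and they are 7 of the 28871 genes measured on the array. The cells came from 4 rabbits (1, 2, 4 and 5), all adult females of the New Zealand White breed, and were cultured without stimulus (mock), with bacterial lipopolysaccharide (LPS, 1 µg/mL), or with phorbol myristate acetate (PMA, 10 ng/mL) and ionomycin (1 µg/mL) together. RNA was taken after 4 h (T4) or 24 h (T24) from separate cultures, so that each of the 6 groups holds 1 culture of each rabbit and the 24 cultures were measured on 24 one-colour arrays. LPS is sensed by receptors on monocytes and other myeloid cells, whereas PMA with ionomycin bypasses surface receptors and is used to activate T cells. PBMCs are a mixture, and in such bulk RNA fewer cells of a type and less RNA per cell cannot be told apart.

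The IL-1 family is a group of related cytokines that start and shape inflammation. IL1A and IL1B encode ligands of the same receptor, which signals through MYD88 to NF-kB, and IL1B is made as a precursor that caspase-1 cleaves. IL18 encodes a related caspase-1 substrate known for inducing interferon gamma, IL33 an alarmin of the nucleus, IL36G an IL-36 receptor agonist best known from epithelia, and IL37 a member known for restraining inflammation. IL1R2 encodes a receptor without a signalling domain that captures IL-1.

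The members were measured by 21 probes of 60 bases, of which 1 per gene is shown here, or 2 where their overlap matters, because each statement below depends on what these probes detect. Positions are on oryCun2, the build named in the file headers, and were not set against a gene annotation. The IL36G gene was read by 5 probes that all share the 42 bases of chr2:97751714-97751755, printed in capitals, so they are close to repeats of the same measurement. The outermost of these probes lie at chr2:97751696-97751755 and chr2:97751714-97751773.
IL36G, first probe: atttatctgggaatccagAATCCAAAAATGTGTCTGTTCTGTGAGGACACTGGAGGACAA
IL36G, last probe: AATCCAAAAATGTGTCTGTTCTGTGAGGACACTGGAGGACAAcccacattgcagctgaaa
The IL18 gene had 7 probes with 5 different sequences inside chr1:104234177-104234316, and 2 of the sequences were carried by 2 probes each. The sequence at chr1:104234217-104234276 was one of these, and its pair of probes differed by a median of 0.22 on the log2 scale.
IL18: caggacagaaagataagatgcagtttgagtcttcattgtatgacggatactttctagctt
Of the 4 IL1A probes, 3 lie close together and the one shown is at chr2:97561619-97561678, while the other lies apart at chr2:97560506-97560565. The IL33 probe shown is at chr1:47919416-47919475 and the only IL1R2 probe at chr2:90431336-90431395.
IL1A: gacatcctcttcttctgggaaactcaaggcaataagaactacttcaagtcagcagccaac
IL33: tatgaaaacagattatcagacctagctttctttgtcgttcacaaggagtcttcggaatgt
IL1R2: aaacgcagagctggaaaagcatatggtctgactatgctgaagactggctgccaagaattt
IL1B and IL37 each had 1 probe that the authors added to the array and spotted 3 times, and the files give no position for either.
IL1B: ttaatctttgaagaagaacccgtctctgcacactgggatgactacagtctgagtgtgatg
IL37: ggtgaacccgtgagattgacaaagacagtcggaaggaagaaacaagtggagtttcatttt

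Levels are given as the log2 of the median spot signal over the median of the array, so that 0 is the array's middle spot and a step of 1 is a factor of 2. Differences between groups are log2 fold changes (log2 FC) or fold changes (FC, negative when lower), and a gene was called differentially expressed (DE) when its adjusted p from limma, over all 28871 genes, was under 0.05. Values of single animals are given in the order of rabbits 1, 2, 4 and 5. Levels of different genes come from different probes and were not compared. Between 51.4 and 62.3% of spots were well above background on an array, and 1 spot in all was saturated, on 1 LPS array at T24. The cell type markers CD14 (monocytes), LCK and CD5 (T cells) and MS4A1 and CD79B (B cells) were well above background on all 24 arrays. Not all markers were: the T cell markers CD4 and BCL11B were well above background on no array. The monocyte marker CD36 was not well above background in any mock or LPS culture at T4. Every group lies on more than 1 of the 3 slides. IL1A, IL1B and IL1R2 were well above background on all 24 arrays, IL18 on 22, IL36G on 18, IL37 on 16 and IL33 on 6, where most probes of a gene had to pass.

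IL1A and IL1B transcripts were high in every culture at T4, the mock cultures included, and by T24 both were higher with LPS than in mock cultures, which had fallen, and IL1B was lower with PMA-Ionomycin than in mock. In mock cultures at T4 the IL1B level was 9.12, 9.54, 8.81 and 9.52. At T24 it was 8.16, 6.82, 4.26 and 2.54 in mock cultures and 10.18, 9.41, 9.33 and 9.51 with LPS. The LPS cultures at T24 were all above the mock cultures of that time and close to each other, and rabbits 4 and 5 had the lowest mock cultures. IL1B was thus DE with LPS at T24, with an FC of 17.9 (log2 FC 4.16, SE 0.77, adjusted p = 0.00428), and higher in 4 of 4 rabbits, although the call was lost without rabbit 4 (log2 FC 3.86, adjusted p = 0.15). Without the mock culture of rabbit 5 the log2 FC was 3.19, and the call was kept. The LPS level at T24 exceeded the LPS level at T4 by 0.82 (adjusted p = 0.382), whereas mock cultures fell by 3.80 from T4 to T24 (adjusted p = 0.00123). With PMA-Ionomycin the IL1B level was 8.61, 7.79, 9.5 and 7.37 at T4 and 1.83, 1.07, 1.99 and 3.29 at T24. IL1B was DE against mock at T24, with an FC of -10.6 (log2 FC -3.40, SE 0.77, adjusted p = 0.00105), but rabbit 5 went the other way (0.75), its mock culture being the lowest of the mock cultures. The log2 FC was -2.42 without rabbit 1 and -4.78 without rabbit 5, both still called, and -2.62 without rabbit 2 (adjusted p = 0.0509). Between PMA-Ionomycin and LPS at T24 the groups lay far apart, with an FC of -189 for IL1B (log2 FC -7.56, adjusted p = 2.52e-08) in 4 of 4 rabbits.

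IL1A was less uniform. Its mock level was 7.88, 7.27, 5.87 and 7.27 at T4 and 6.11, 5.27, 3.66 and 0.63 at T24, so that rabbit 5 again had the lowest culture. With LPS it was 8.91, 9.3, 9.06 and 7.27 at T4, above mock in rabbits 1, 2 and 4 and equal in rabbit 5, and the log2 FC of 1.56 (95% interval -0.07 to 3.19) did not pass (adjusted p = 0.389). At T24 the LPS level was 7.82, 7.13, 6.87 and 6.46, and IL1A was DE with an FC of 8.92 (log2 FC 3.16, SE 0.79, adjusted p = 0.0486). The adjusted p of IL1A is close to the threshold, and its call was kept in 8 of 16 alternatives. It was lost with processed signal (adjusted p = 0.0797), with eBayes trend and robust (0.0789) and with the compared arrays alone (0.319). It was also lost without rabbit 1 (adjusted p = 0.0724), without rabbit 2 (0.205), without rabbit 4 (0.38), and with the slide as a block (0.0784). Without the mock culture of rabbit 5 at T24, which has the lowest IL1A level of all 24, the log2 FC was 2.06 (adjusted p = 0.0906). With PMA-Ionomycin the IL1A level was 7.37, 7.42, 7.6 and 5.24 at T4 and 2.98, 2.09, 2.12 and 2.77 at T24. The difference from mock was not called at T24 (log2 FC -1.42, 95% interval -3.06 to 0.21, adjusted p = 0.196), but it was without rabbit 5 (log2 FC -2.61, adjusted p = 0.000469). The difference from LPS at T24 was -4.58 on the log2 scale (FC -23.9, adjusted p = 4.49e-05) in 4 of 4 rabbits. The IL1A probes differed in size at T24 with PMA-Ionomycin: -0.79 on the log2 scale for the probe that lies apart and between -1.80 and -1.47 for the other 3.

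**Figure D1:**
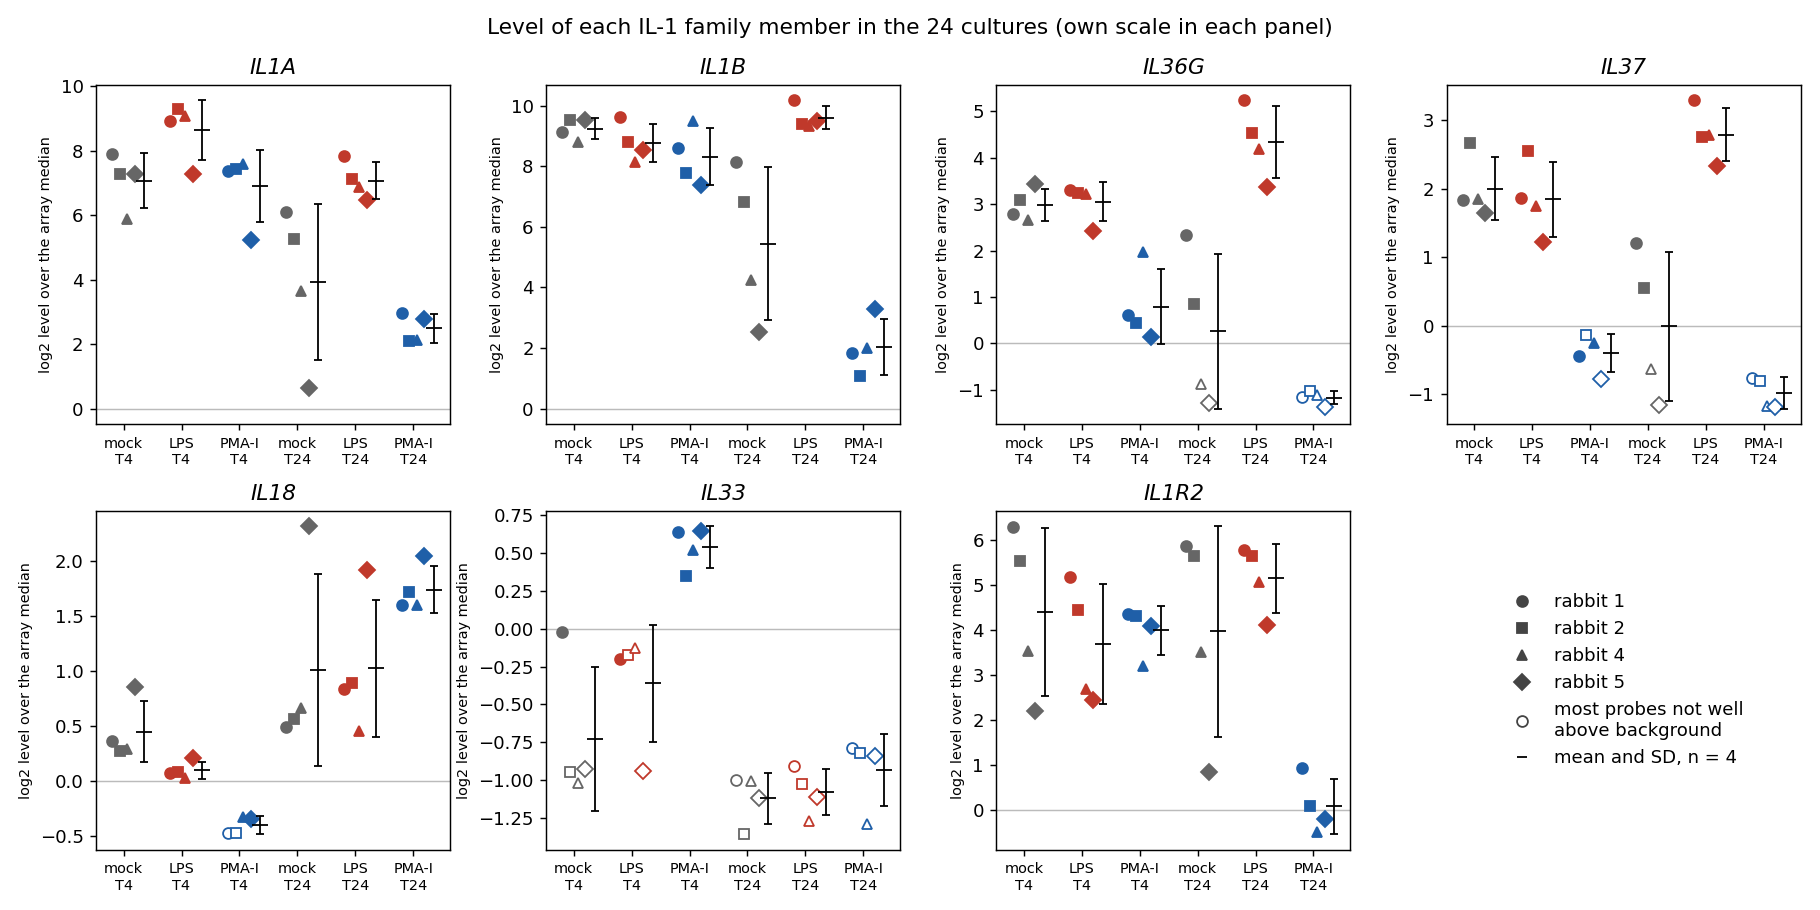
Level of each member (log2 over the array median, own scale in each panel) in the 6 groups, with 1 point per rabbit, the mean and the SD over 4 rabbits beside them, and open points where most probes were not well above background. IL1A and IL1B are high in all T4 groups, and at T24 the mock cultures spread widely, with IL1A of rabbit 5 (0.63) below all 4 PMA-Ionomycin cultures.

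IL36G and IL37 went together: both were up-regulated by LPS at T24 and down-regulated by PMA-Ionomycin at T4. The IL36G level was 2.78, 3.08, 2.66 and 3.43 in mock cultures at T4, and 3.31, 3.24, 3.23 and 2.42 with LPS at T4. At T24 it was 2.33, 0.85, -0.87 and -1.29 in mock cultures and 5.24, 4.54, 4.18 and 3.38 with LPS. The LPS cultures at T24 lie above every mock culture of that time, of which 2 of 4 were well above background, and IL36G was DE with an FC of 16.9 (log2 FC 4.08, SE 0.54, adjusted p = 0.00013). With PMA-Ionomycin at T4 the level was 0.62, 0.43, 1.96 and 0.13, below all mock cultures, and the FC was -4.6 (log2 FC -2.20, SE 0.54, adjusted p = 0.00373). Without rabbit 2 this call was lost (log2 FC -2.05, adjusted p = 0.0581). At T24 the level with PMA-Ionomycin was -1.15, -1.04, -1.12 and -1.37, where most IL36G probes were not well above background on any array, against mock cultures of which those of rabbits 4 and 5 were not either. IL36G was called lower there (adjusted p = 0.0468), a call kept in 9 of 16 alternatives, with rabbits 4 and 5 differing by only -0.24 and -0.08. Without rabbit 1 the log2 FC was -0.74 (adjusted p = 0.36).

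The IL37 level was 1.84, 2.67, 1.85 and 1.64 in mock cultures at T4 and 1.86, 2.55, 1.74 and 1.22 with LPS at T4, so the groups overlap. At T24 it was 1.21, 0.55, -0.64 and -1.16 in mock cultures and 3.29, 2.76, 2.78 and 2.33 with LPS. The 2 groups do not overlap at T24, with 2 of 4 mock arrays well above background, and IL37 was DE with an FC of 6.95 (log2 FC 2.80, SE 0.37, adjusted p = 0.000122). With PMA-Ionomycin at T4 the level was -0.44, -0.14, -0.25 and -0.78, below every mock culture, with an FC of -5.29 (log2 FC -2.40, SE 0.37, adjusted p = 2.65e-05) in 4 of 4 rabbits, with IL37 well above background on 2 of the 4 PMA-Ionomycin arrays, so that the size is not exact. At T24 IL37 was not well above background on any PMA-Ionomycin array. Against mock it was called at adjusted p = 0.0449, where it was well above background on 2 of 4 mock arrays, and rabbit 5 differed by only -0.03. The call was kept in 9 of 16 alternatives, and was lost without rabbit 1 (log2 FC -0.64, adjusted p = 0.282), rabbit 2 (-0.85, 0.162) or rabbit 4 (-1.12, 0.0927). The within-slide differences for this comparison ran from -2.02 to 0.14, so that the direction did not hold on every slide. Against LPS at T24 the LPS group was at least 13-fold higher (adjusted p = 1.41e-08). For this fold, the lowest signal well above background on a PMA-Ionomycin array replaced the IL37 signal only where IL37 was dimmer. The sizes depend on the signal used: with processed signal, which has background subtracted, the log2 FC of IL37 was -4.35 with PMA-Ionomycin at T4 and 4.25 with LPS at T24, and that of IL36G was -2.86 and 5.73.

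IL18 moved over a narrower range and in another order. Its level was 0.37, 0.28, 0.29 and 0.86 in mock cultures at T4, and -0.47, -0.47, -0.32 and -0.34 with PMA-Ionomycin. The PMA-Ionomycin cultures lie below all mock cultures, and IL18 was down-regulated with an FC of -1.8 (log2 FC -0.85, SE 0.30, adjusted p = 0.0456) in 4 of 4 rabbits, with 2 of 4 arrays having most IL18 probes above background. This call was lost when rabbit 1, rabbit 2 or rabbit 4 was left out (adjusted p between 0.118 and 0.159), and the log2 FC stayed between -0.93 and -0.85. The call was also lost with normexp (log2 FC -0.68, adjusted p = 0.0713) and with single probes, where 3 of 7 passed. With processed signal the log2 FC was -2.04. At T24 the level was 0.49, 0.57, 0.67 and 2.32 in mock cultures, 0.84, 0.89, 0.46 and 1.92 with LPS and 1.6, 1.72, 1.6 and 2.05 with PMA-Ionomycin. Rabbit 5 stands above the other animals in the mock and LPS groups. The difference of PMA-Ionomycin from mock at T24 was 0.73 on the log2 scale (SE 0.30, adjusted p = 0.0693), positive in rabbits 1, 2 and 4 and -0.27 in rabbit 5. The rabbits are paired across groups, and with the rabbit as a replicate block this difference passed (adjusted p = 0.0115), as it did without rabbit 5 (log2 FC 1.06, adjusted p = 2.07e-06). In PMA-Ionomycin cultures IL18 was up-regulated from T4 to T24 by 2.14 on the log2 scale (FC 4.42, adjusted p = 4.07e-06), between 1.92 and 2.39 in the 4 rabbits. The log2 FC for LPS was -0.35 at T4 (95% interval -0.97 to 0.28) and 0.01 at T24.

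IL33 was detected mainly in 1 group. With PMA-Ionomycin at T4 its level was 0.64, 0.35, 0.52 and 0.65, well above background on 4 of 4 arrays. In mock cultures at T4 it was -0.02, -0.95, -1.02 and -0.93, where only rabbit 1 was well above background. IL33 was DE with an FC of 2.42 (log2 FC 1.27, SE 0.20, adjusted p = 2.65e-05) and higher in 4 of 4 rabbits. Over the alternatives the log2 FC ran from 0.97 with normexp to 3.31 with processed signal. With LPS at T4 the level was -0.20, -0.17, -0.13 and -0.94, and the log2 FC of 0.37 (95% interval -0.03 to 0.78) did not pass. At T24 IL33 was not well above background on any mock or LPS array, and 1 of its 2 probes was on 1 PMA-Ionomycin array. With PMA-Ionomycin IL33 was called lower at T24 than at T4 (adjusted p = 1.7e-06), most of its signal at T24 not being well above background.

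IL1R2, the decoy receptor, differed widely between animals in mock cultures. Its mock level was 6.3, 5.54, 3.54 and 2.20 at T4 and 5.88, 5.64, 3.52 and 0.83 at T24, with rabbits 1 and 2 high and rabbit 5 low at both times. With LPS the level was 5.17, 4.45, 2.68 and 2.44 at T4 and 5.77, 5.65, 5.07 and 4.1 at T24. Neither difference passed, with a log2 FC of -0.71 (95% interval -2.57 to 1.16) at T4 and 1.18 (adjusted p = 0.75) at T24. With PMA-Ionomycin the level was 4.36, 4.32, 3.2 and 4.09 at T4 and 0.93, 0.08, -0.51 and -0.22 at T24. IL1R2 was down-regulated against mock at T24 with an FC of -14.9 (log2 FC -3.90, SE 0.90, adjusted p = 0.00128), in 4 of 4 rabbits. The differences of rabbits 1, 2 and 4 (-4.95, -5.55 and -4.03) were larger than that of rabbit 5 (-1.05). Against LPS at T24 the FC was -33.7 (adjusted p = 6.52e-05), with rabbit differences between -5.58 and -4.32.

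Counted over the 7 members, 0 were called with LPS at T4, where 1.03% of all genes were, and 0 had an unadjusted p under 0.05 in limma, against 13.9% of all genes. With LPS at T24, 4 of 7 (IL1A, IL1B, IL36G and IL37) were called, all higher, where 1.22% of all genes were called and 0.637% were called higher. The median log2 FC of the members was 2.80, beside -0.031 over all genes. Because the members were picked with earlier results of these data known, their counts and medians cannot show that the family stands out. Of the 3 other family ligands measured, 0 were called with LPS at T24. When only the 8 arrays of mock and LPS at T24 were fitted, 0 members passed limma's threshold, with adjusted p of 0.0565 for IL37, 0.0769 for IL36G, 0.209 for IL1B and 0.319 for IL1A, and 4 had an unadjusted p under 0.05. With PMA-Ionomycin at T4, 4 of 7 were called, IL33 higher and IL18, IL36G and IL37 lower, beside 22.8% of all genes. At T24, 4 of 7 were called, IL1B, IL1R2, IL36G and IL37, all lower, beside 33.6% of all genes in either direction and 11.5% lower. The members' median log2 FC there was -1.42, beside 0.031 over all genes. Without rabbit 2 only IL1R2 was called at T24. PMA-Ionomycin and LPS, compared directly, differed in 3 of 7 members at T4 (26.7% of all genes) and in 5 of 7 at T24 (36.1% of all genes, 12.5% lower). The last were IL1A, IL1B, IL36G, IL37 and IL1R2, all lower with PMA-Ionomycin. The comparisons with mock share the mock cultures, which ties their values to each other.

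**Figure D2:**
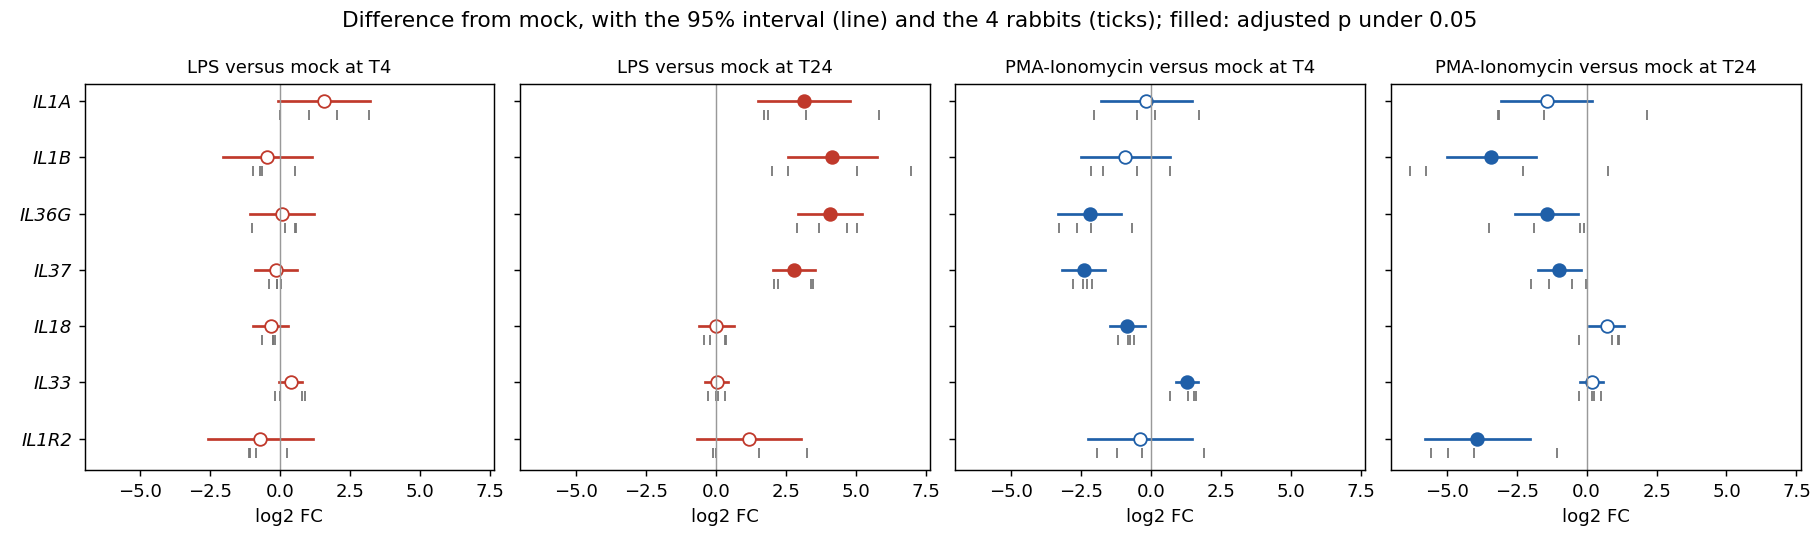
Log2 FC from mock of each member with LPS or PMA-Ionomycin at T4 and T24 (x axis). Circles are the fitted values, filled when called, lines their 95% intervals, and ticks the 4 rabbits. At T24 IL1A, IL1B, IL36G and IL37 lie above 0 with LPS in every rabbit, and with PMA-Ionomycin the ticks of IL1B run from -6.33 to 0.75.

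The time comparison of mock cultures bears on all of these, since 4 of 7 members were called lower at T24 than at T4 without stimulus, beside 12.5% of all genes in either direction and 5.13% lower. IL1B fell by 3.80, IL1A by 3.16 (adjusted p = 0.00766), IL36G by 2.73 (adjusted p = 0.00106) and IL37 by 2.01 (adjusted p = 0.000471) on the log2 scale. The size varied between animals, from -0.96 in rabbit 1 to -6.98 in rabbit 5 for IL1B. The T24 mock cultures of rabbits 4 and 5 lay on slide 1, that of rabbit 1 on slide 2 and that of rabbit 2 on slide 3. Animal and slide therefore cannot be told apart in this group. For IL36G and IL37 the T24 mock cultures of rabbits 4 and 5 were not well above background, so the size of their fall is not exact. In LPS cultures 3 of 7 members were called over time (IL18 and IL37 higher, IL33 lower), beside 37.6% of all genes, and none of IL1A, IL1B, IL36G and IL37 was called lower. There the change over time was -1.57 for IL1A (95% interval -3.20 to 0.07), 0.82 for IL1B, 1.29 for IL36G (adjusted p = 0.0645) and 0.94 for IL37 (adjusted p = 0.048). In PMA-Ionomycin cultures IL1B fell by 6.28 (adjusted p = 5.56e-07), IL1A by 4.42 (adjusted p = 8.45e-05), and IL1R2 fell by 3.92 (adjusted p = 0.00127), while IL36G was called lower (adjusted p = 0.00654) with most probes at background at T24. With IL18 and IL33, 6 of 7 members were called over time with PMA-Ionomycin, beside 33.7% of all genes.

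**Figure D3:**
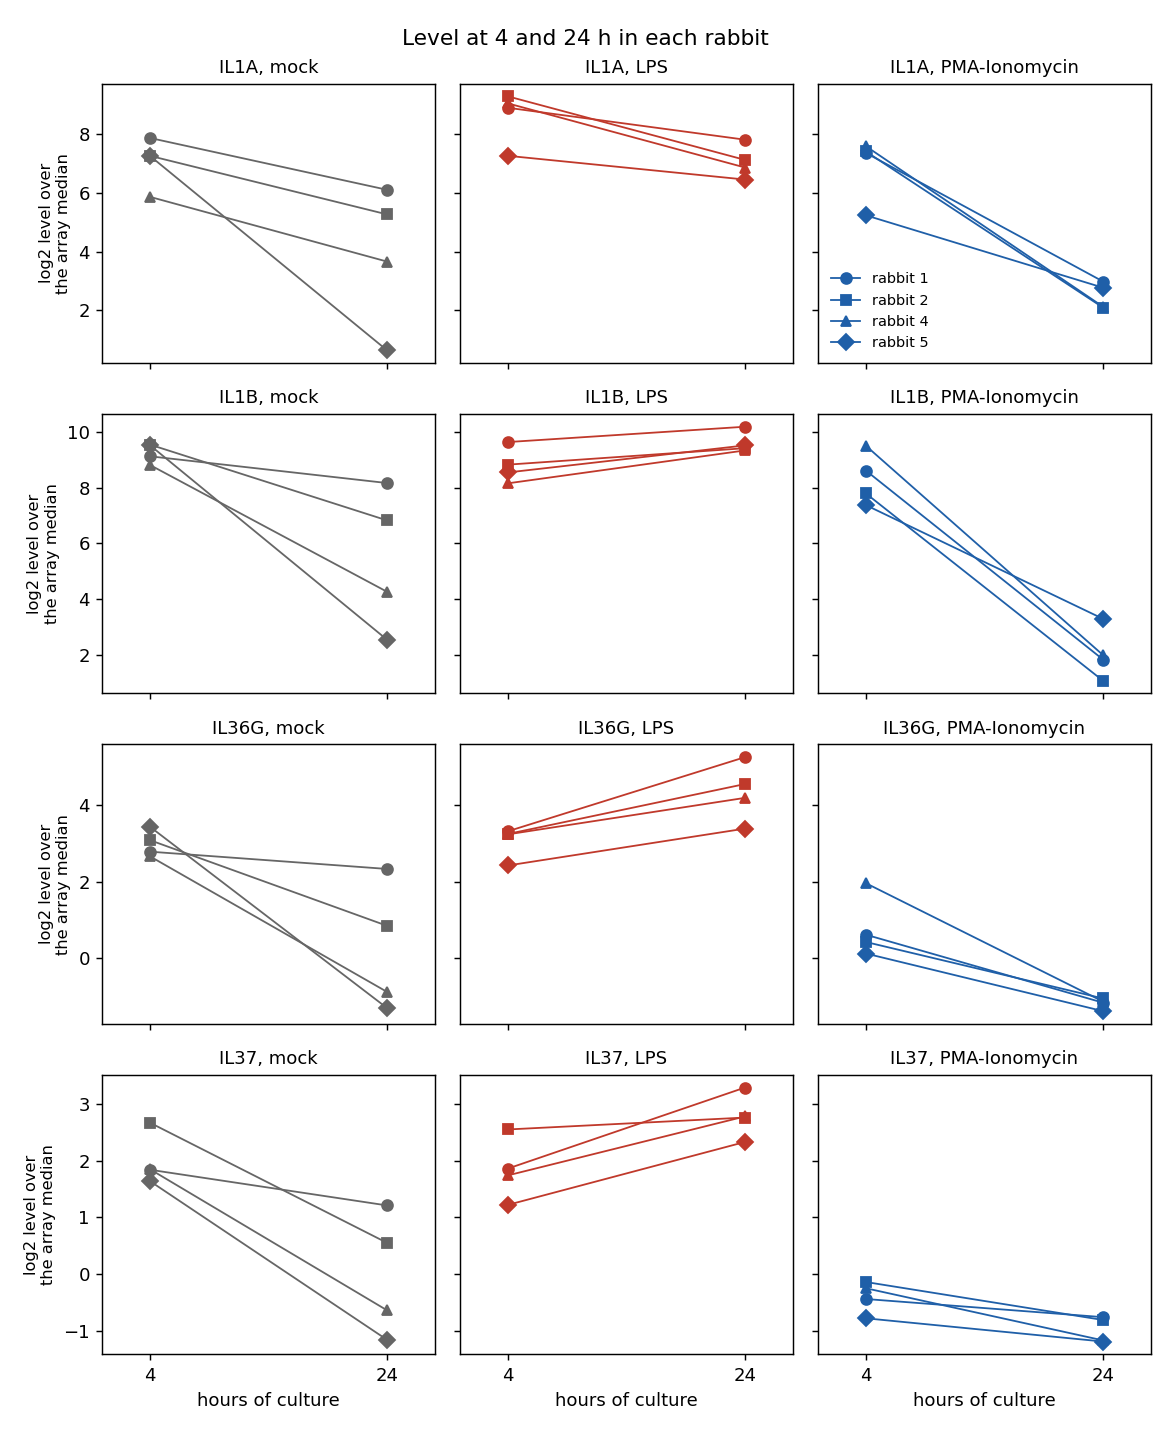
Level (log2 over the array median) of IL1A, IL1B, IL36G and IL37 at 4 and 24 h, with 1 line per rabbit joining its cultures under the same stimulation. Mock lines go down to different depths, from -0.96 to -6.98 for IL1B, LPS lines of IL1B, IL36G and IL37 go up, and PMA-Ionomycin lines of IL1B go down in all 4 rabbits.

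Whether the response to LPS differed between times was tested as the interaction of stimulation and time. It was called for 3 of 7 members, beside 1.95% of all genes. The LPS response was larger at T24 than at T4 by 4.63 for IL1B (adjusted p = 0.0292), 4.02 for IL36G (adjusted p = 0.0111) and 2.95 for IL37 (adjusted p = 0.00554) on the log2 scale, in 4 of 4 rabbits each. These interaction calls were lost without rabbit 2 and without rabbit 4 (adjusted p between 0.0945 and 0.227), with the values between 2.77 and 5.06. All 3 were also lost with processed signal (adjusted p between 0.0618 and 0.0684). That of IL1B was lost as well without rabbit 5 (3.52, adjusted p = 0.096) and with the compared arrays alone (adjusted p = 0.0634). For PMA-Ionomycin the interaction was called for IL18 (1.58, adjusted p = 0.00825) and IL33 (-1.09, adjusted p = 0.00508, its T24 groups being near background), beside 22.5% of all genes. The IL18 call was lost without rabbit 1 (1.45, adjusted p = 0.0883) or rabbit 2 (1.47, adjusted p = 0.0882), and the IL33 call without rabbit 4 (-0.84, adjusted p = 0.0952). With the rabbit as a replicate block it also passed for IL1R2 (-3.50, adjusted p = 0.00143, against 0.0514 without) and IL37 (1.43, adjusted p = 0.00626, against 0.0521 without).

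The order of the group means shows which levels cannot be separated. For IL1B, LPS at T24 (9.61 ± 0.39, SD, n = 4), mock at T4 (9.25 ± 0.35), LPS at T4 (8.79 ± 0.63) and PMA-Ionomycin at T4 (8.32 ± 0.94) followed each other with no neighbours called apart. Mock at T24 (5.45 ± 2.53) was below PMA-Ionomycin at T4 (adjusted p = 0.00499) and above PMA-Ionomycin at T24 (2.05 ± 0.92, adjusted p = 0.00105). For IL1A the highest mean was LPS at T4 (8.64 ± 0.92) and the lowest PMA-Ionomycin at T24 (2.49 ± 0.45), and the only neighbours called apart were PMA-Ionomycin at T4 (6.91 ± 1.12) and mock at T24 (3.91 ± 2.42, adjusted p = 0.00437). IL36G ran from LPS at T24 (4.33 ± 0.77) to PMA-Ionomycin at T24 (-1.17 ± 0.14), with called steps from mock at T4 (2.99 ± 0.34) to PMA-Ionomycin at T4 (0.79 ± 0.81) and from mock at T24 (0.25 ± 1.67) to PMA-Ionomycin at T24. IL37 had 1 called step, from LPS at T4 (1.84 ± 0.55) to mock at T24 (-0.01 ± 1.08, adjusted p = 0.000615). IL33 had 1, from PMA-Ionomycin at T4 (0.54 ± 0.14) to LPS at T4 (-0.36 ± 0.39, adjusted p = 0.000989). IL1R2 had 1, from LPS at T4 (3.69 ± 1.34) to PMA-Ionomycin at T24 (0.07 ± 0.62, adjusted p = 0.00234). In IL18 no neighbours were called apart, from PMA-Ionomycin at T24 (1.74 ± 0.21) to PMA-Ionomycin at T4 (-0.40 ± 0.08).

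The probes of a gene had the same direction in each difference from mock that was called. The 5 IL36G probes differed from mock by 3.88 to 4.35 with LPS at T24 and by -2.33 to -2.07 with PMA-Ionomycin at T4. The 7 IL18 probes differed by -1.15 to -0.54 with PMA-Ionomycin at T4 and by 0.52 to 0.87 at T24. The 2 IL33 probes gave 1.15 and 1.40 with PMA-Ionomycin at T4. The 3 spots of the IL1B probe differed on an array by a median of 0.25 and at most 0.39, and those of the IL37 probe by a median of 0.16 and at most 0.79.

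**Figure D4:**
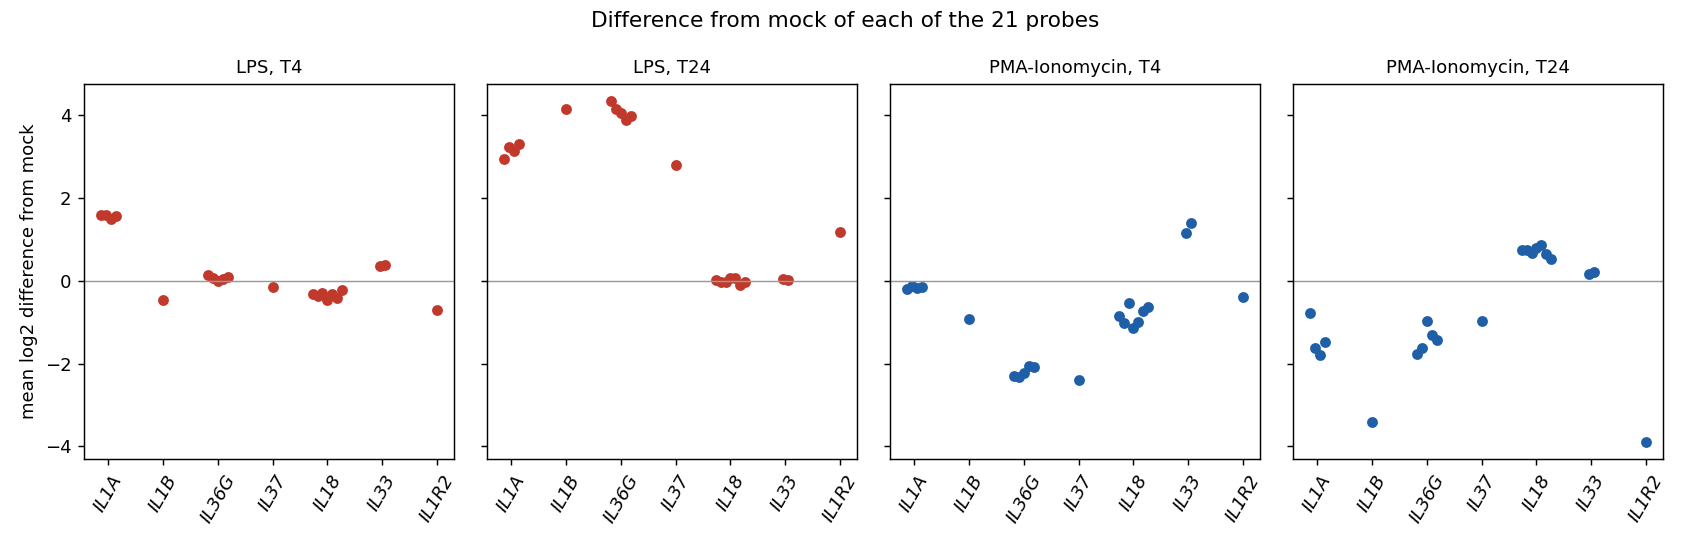
Mean log2 difference from mock of each of the 21 probes (points) by gene (x axis), for LPS and PMA-Ionomycin at T4 and T24. The probes of IL1A, IL18, IL33 and IL36G stay close to each other, the widest being IL1A with PMA-Ionomycin at T24, from -1.80 to -0.79.

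Across the 24 arrays, IL36G and IL37 had a Pearson r of 0.958, and IL37 was the gene nearest to IL36G, and IL36G the nearest to IL37, among 5959 genes with a symbol that were well above background on at least 12 arrays. IL1A and IL1B had an r of 0.908. These are descriptions, since the arrays share 6 groups and 4 animals. The genes nearest to IL1A were CXCL8 (0.956), a neutrophil-attracting chemokine, THBS1 (0.947) and RASA2 (0.921). Those nearest to IL1B were PLA2G4A (0.934), which encodes a phospholipase that releases arachidonic acid, THBS1 (0.921) and ATP8B1 (0.918). IL36G was followed by BCL3 (0.899) and MEFV (0.888), and IL37 by MEFV (0.903), which encodes pyrin, and IL12RB2 (0.899). IL1R2 was nearest to CCRL2 (0.941), FPR2 (0.927) and ANTXR2 (0.911). IL18 ran with another set, EXOC6 (0.955), MAGEH1 (0.948) and POLM (0.947), and against IL1A (-0.74). IL33 was well above background on too few arrays for this comparison.

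Of the other family ligands, 3 of 5 listed genes could be named on the array. IL1RN, which encodes the receptor antagonist of IL-1, was well above background on all 24 arrays. In mock cultures it was higher at T24 (8.79 ± 1.01) than at T4 (7.61 ± 0.40), by 1.18 on the log2 scale (adjusted p = 0.0466), where IL1A and IL1B were lower. Its difference from mock was not called with LPS (-0.70 at T4, 0.52 at T24) or PMA-Ionomycin (0.64 at T4, -0.88 at T24), but PMA-Ionomycin exceeded LPS by 1.33 at T4 (adjusted p = 0.0109) and was below it by a log2 FC of -1.41 at T24 (adjusted p = 0.0051). IL36RN, encoding the IL-36 receptor antagonist, was well above background on 2 arrays and IL1F10 on none.

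Of the receptors and binding proteins, 6 of 10 could be named with the sources used here. Of these 6, 0 were called with LPS at either time, where 1.03% (T4) and 1.22% (T24) of all genes were. IL18BP, which encodes a secreted protein that neutralises IL-18, fell with PMA-Ionomycin at T24 by 2.24 on the log2 scale (adjusted p = 0.000187), where the IL18 log2 FC was 0.73. IL18BP was 7.80 ± 0.22 in mock cultures and 5.57 ± 0.31 with PMA-Ionomycin, and the groups do not overlap. IL1RL1, the gene of the IL-33 receptor, was down-regulated by PMA-Ionomycin by 1.05 at T4 (adjusted p = 0.000125), the group in which IL33 was high. At T24 IL1RL1 was called lower (adjusted p = 6.02e-06) and was well above background on 0 of 4 PMA-Ionomycin arrays, against 4 of 4 mock arrays. IL18R1, a chain of the IL-18 receptor, was called lower at T4 (adjusted p = 0.0333), where it was well above background on 0 of 4 PMA-Ionomycin and 3 of 4 mock arrays. IL1R1, the signalling IL-1 receptor, was not called in any comparison with mock and was well above background on 13 arrays. The co-receptor IL1RAP could not be named with the sources used here, so it is not among the 6. The authors list it, from the same arrays, as higher with LPS and lower with PMA-Ionomycin at T24.

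Of 20 listed genes of the inflammasome and of ligand processing, 7 could be named, with 0 called for LPS against mock at either time, beside the same 1.03% and 1.22% of all genes. TXNIP was called in the LPS by time interaction (1.86, adjusted p = 0.0241). CASP1, the gene of the protease that activates IL-1β and IL-18, was lower with PMA-Ionomycin at T24 (-0.41 ± 0.21) than in mock cultures (1.10 ± 0.33), by a log2 FC of -1.51 (adjusted p = 5.56e-07). CASP1 rose in mock cultures over time by 0.83 (adjusted p = 0.00298). With PMA-Ionomycin 1 of the 7 rose and 1 fell at T4, beside 22.8% of all genes called, and 1 rose and 3 fell at T24, beside 33.6%. TXNIP, which encodes a thioredoxin inhibitor, fell with PMA-Ionomycin at both times (-1.67 and -1.43), and GSDME, a gasdermin gene, rose at both (1.16 and 0.64), while CAPN2, a calpain gene, fell at T24 (log2 FC -0.59, adjusted p = 0.0492). Of 17 measured genes of receptor-proximal signalling, IRAK3, which encodes an inhibitor of the pathway, rose with LPS at T24 by 0.95 (adjusted p = 0.00307) and fell with PMA-Ionomycin by 1.20 at T4 and 1.91 at T24 (adjusted p = 3.51e-09), where it was well above background on 1 of 4 arrays. The adaptor gene MYD88 was lower with LPS at T4 (log2 FC -1.19, adjusted p = 0.0214). With PMA-Ionomycin 3 of the 17 rose and 1 fell at T4, beside 22.8% of all genes called, and 3 rose and 5 fell at T24, beside 33.6%, among them the kinase gene MAP3K8 (log2 FC -1.81, adjusted p = 7.53e-09).

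Genes known to respond to IL-1 were also read, with 14 of 20 listed genes named. With LPS, 0 of 14 were called at T4, beside 1.03% of all genes, and at T24 4 rose and 0 fell, beside 0.637% called higher, with a median log2 FC of 1.64 over the list and -0.031 over all genes. The risers were IL6 (log2 FC 4.73, adjusted p = 0.000603), LCN2 (2.96), CSF3 (2.69) and MMP3 (2.62). In mock cultures at T24, CSF3 was well above background on 2 of 4 arrays and MMP3 on 3, so their sizes are not exact. With PMA-Ionomycin 6 rose and 2 fell at T4, beside 22.8% of all genes called, and 4 rose and 3 fell at T24, beside 33.6%. IL6, CCL2, CCL20 and MMP3 rose at both times, CCL2 by 2.88 at T4 and 2.47 at T24. At T24 the falling genes were SAA3 (-1.84), NFKBIZ (-1.82) and NFKBIA (-1.51). In mock cultures over time 4 fell, among them PTGS2 (-4.15) and IL6 (-2.96), and CCL2 rose (3.50), beside 12.5% of all genes called. These genes also respond to other stimuli, LPS among them.

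Markers of monocytes, a main source of IL-1β in blood, moved in the same comparisons, and their part in the results was not tested. Of 15 measured markers out of 21 listed, 0 rose and 13 fell with PMA-Ionomycin at T24, where IL1B, IL1R2, IL36G and IL37 were lower and 11.5% of all genes were called lower. The largest falls were those of S100A8 (log2 FC -7.14), CYBB (-4.81), CSF1R (-3.29) and CD14 (-3.27). At T4 0 rose and 5 fell, beside 22.8% of all genes called. With LPS (background shares 1.03% at T4 and 1.22% at T24) 0 rose and 2 fell at T4 (CD14 by 1.55 and CSF1R by 1.44), and at T24 S100A9 rose and MPEG1 fell. CD14 was 8.75 ± 0.63 in mock cultures and 8.62 ± 0.55 with LPS at T24, and 5.48 ± 0.64 with PMA-Ionomycin. CSF1R was 4.09 ± 0.59, 4.10 ± 0.62 and 0.80 ± 0.15 in the same groups, and neither marker was at background there. The summed level of the 15 markers ranged from 8.81 to 9.47 in mock, 7.53 to 9.04 in LPS and 7.39 to 8.14 in PMA-Ionomycin cultures at T4. At T24 it ranged from 8.81 to 11.42, from 10.64 to 11.88 and from 6.57 to 7.44. The sum follows the brightest markers, such as S100A8, which was 8.18 ± 2.15 in mock and 10.97 ± 0.63 in LPS cultures at T24. The median log2 FC of the 15 markers with LPS at T24 was -0.01. The higher LPS sum therefore does not show a shift of the 15 markers together. In mock cultures over time 6 of the 15 rose and 0 fell, beside 12.5% of all genes called, CSF1R by 2.92, whereas IL1A, IL1B, IL36G and IL37 fell. Neutrophil markers also moved, with 4 of 6 higher in mock cultures at T24 than at T4 (MMP9 by 3.29). With PMA-Ionomycin 0 of 6 were higher than mock at either time, and 1 was lower at T4 (CAMP). At T24 3 were lower than mock (CAMP, MPO and LTF), with a median log2 FC of -0.83. Against LPS at T24 3 were lower with PMA-Ionomycin, beside 12.5% lower over the whole array. Their summed level, 7.45 to 8.22 in mock cultures at T4 and 8.89 to 12.30 at T24, is nearly that of MMP9 alone (7.39 to 8.18 and 8.81 to 12.3). Of 5 epithelial markers only EPCAM was called, higher with PMA-Ionomycin at T4 (log2 FC 2.31) and lower at T24 (-2.30), and higher in mock cultures at T24 than at T4 (2.08), and it was well above background on 1 of 4 arrays in mock at T4 and in PMA-Ionomycin at T24. Platelet markers fell in mock cultures over time in 4 of 5 (TUBB1 by 4.35). With PMA-Ionomycin 4 of the 5 fell at T4, and at T24 0 fell and 1 rose (TUBB1, log2 FC 1.21). T cell markers gave 1 rise and 1 fall of 10 with PMA-Ionomycin at each time, and B cell markers 1 rise and 2 falls of 7 at each time. The array-wide share in either direction, for PMA-Ionomycin against mock, was 22.8% (T4) and 33.6% (T24). It is the background for every marker type here, and the T cell counts do not exceed it. CD79B fell at T4 (log2 FC -3.93), MS4A1 fell at both times (-1.70 and -2.63), CD22 fell at T24 (-0.59), and BLK rose at both (1.56 and 1.75). Of the 2 NK cell markers measured, 2 rose at T24 and 1 fell at T4, and of 4 erythrocyte markers 1 fell at T24. With LPS 0 B cell, T cell, NK cell, platelet, erythrocyte or epithelial markers were called, and 2 of 6 neutrophil markers (CAMP and MPO) fell at T24.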

How the data were processed

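Cy3-labelled RNA was hybridised to Agilent one-colour arrays. Per the submitters' processing notes, Feature Extraction 10.7.3.1 gave the spot intensity values the authors deposited, unscaled between arrays. A deposited log2 table equals the log2 median signal minus a constant per array, and the methods name a median normalization of log2 median signals.

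Log2 median signals of non-control spots were centred on the array median, without outlier spots, and averaged per probe and then per gene. Of 42089 probes, 11497 took a name from a RefSeq accession, 8929 from a gene number, 73 from the files' gene name and 457 from the study's list of added genes, which names IL1B and IL37, and 21133 kept their identifier. The RefSeq table (mOryCun1.1) served for names only. A probe that the files call IL1R1 carries the accession of IL1RN and was read as IL1RN.

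limma 3.58.1 (R 4.3.3) fitted the 6 group means over all 24 arrays (3 slides of 8), with Benjamini-Hochberg adjustment over 28871 genes. Figures were drawn with matplotlib 3.10.9. Samples are paired, because a number marks the same animal in every group: residuals correlated with a median of 0.228 within a rabbit and -0.0746 across rabbits. The methods use no pairing, so the rabbit block was an alternative, as were other normalizations and signals, the deposited table, a dim-probe filter, kept outlier spots, only the arrays compared, a slide block, eBayes with trend and robust, single probes and leaving out each rabbit. Leaving out the T24 mock culture of rabbit 5 was chosen after seeing the data. The number of arrays limits the precision. On simulated data (28756 genes, 200 of them changed), 97% of log2 changes of 2 were recovered in the LPS comparison at T24. The changed genes were drawn at random, with the same spread in all groups. The spread of members differed between groups, as for IL1B at T24 (SD 2.53 in mock and 0.39 in LPS cultures). The recovered share therefore does not apply to the members.

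The members, gene lists and tests were chosen with earlier results of these data known. Named beside the members were up to 4 called genes per list and comparison with the largest log2 FC, CD14 and CSF1R, and the 3 genes nearest to each member. The unchanged or dim family genes, LCK, CD5, MS4A1, CD79B, CD4, BCL11B and CD36 were named after their values were seen.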

Additional observations from a re-analysis of the deposited data

Results flagged for a closer look

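In 7 of 42 sets of 4 cultures, a single animal stood apart, the gap to its nearest neighbour, as a share of the group's whole range, being above Dixon's critical value for 4 samples. Chance alone sets about 1 in 20 such sets apart. Rabbit 5 was the animal in 5 of the 7. Its IL1A level with PMA-Ionomycin at T4 was 5.24 against 7.37 to 7.6 in the others (gap ratio 0.904). Its IL18 level in mock cultures was 0.86 against 0.28 to 0.37 at T4 (0.846) and 2.32 against 0.49 to 0.67 at T24 (0.898). With LPS at T4 its IL36G level was 2.42 against 3.23 to 3.31 (0.911), and its IL33 level -0.94 against -0.20 to -0.13 (0.91). IL33 was also apart in the mock culture of rabbit 1 at T4 (-0.02 against -1.02 to -0.93, gap ratio 0.914) and in the PMA-Ionomycin culture of rabbit 4 at T24 (-1.29 against -0.84 to -0.79, gap ratio 0.909), and was well above background in the first of these.

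The response to stimulation differed between T4 and T24 by a test of the interaction in limma for 5 members and stimuli. The LPS response was larger at T24 by 4.63 for IL1B, 4.02 for IL36G and 2.95 for IL37 on the log2 scale, and the PMA-Ionomycin response differed by 1.58 for IL18 and -1.09 for IL33. Each of these calls was lost in some alternatives, among them leaving out single rabbits, as given with the results.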

How the results depend on the processing

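Over the alternatives, 123 counts of called members stayed within 1.5 times the reported count and 21 did not, and of the members' log2 FC values 925 kept their side of the threshold, 48 lost it and 35 gained it. No value called in either fit changed sign, while some uncalled values did, such as IL36G with LPS at T4 (-0.11 to 0.42) and IL1A with PMA-Ionomycin at T4 (-0.80 to 0.46). For PMA-Ionomycin against mock at T24 the count of 4 became 2 with quantile normalization, with normexp, with slide as a block and with the compared arrays alone. For LPS against mock at T24 it became 0 with the compared arrays alone in limma (4 at an unadjusted p under 0.05). For PMA-Ionomycin against LPS at T4 the compared arrays alone gave 5. The LPS by time interaction gave 0 with processed signal in limma (3 at an unadjusted p under 0.05). The PMA-Ionomycin by time interaction gave 4 with probes well above background, with single probes and with the rabbit as a replicate block, and 5 without the mock culture of rabbit 5 at T24. The replicate block lost no call and, beside those given with the results, added IL18 (adjusted p = 0.0119 against LPS at T24) and IL1A (0.0391 against LPS at T4). Leaving out each rabbit gave 0 to 0 members for LPS at T4, 2 to 4 for LPS at T24, 2 to 4 for PMA-Ionomycin at T4, 1 to 6 for PMA-Ionomycin at T24, 3 to 5 and 5 to 6 for PMA-Ionomycin against LPS at T4 and T24, 4 to 4 for mock over time, 0 to 3 for the LPS interaction and 1 to 5 for the PMA-Ionomycin interaction. The cause of these shifts was not tested. For PMA-Ionomycin against LPS at T4 all genes had a median of -0.04 on the log2 scale, which became -0.41 with processed signal. Levels of IL33, IL37 and IL36G near background limit what their T24 differences with PMA-Ionomycin can show.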
